A study of Mus musculus with 4 samples.

Results

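The chromatin at 5 core pluripotency genes, Pou5f1, Sox2, Sall4, Utf1 and Lin28a, was described in mouse rosette stem cells, pluripotent cells held between the naive and the primed state. The genes were represented by windows on mouse build mm9, and every called region that overlapped a window by at least 1 bp was taken as a member. The windows ran from 35.635 to 35.65 Mb of chromosome 17 (Pou5f1), 34.53 to 34.57 Mb of chromosome 3 (Sox2), 168.57 to 168.6 Mb of chromosome 2 (Sall4), 147.12 to 147.14 Mb of chromosome 7 (Utf1) and 133.55 to 133.58 Mb of chromosome 4 (Lin28a). They held 31 of the 76945 regions in the 4 lists. Of these, 16 were H3K4me3 regions of CGR8 and 13 were H3K4me3 regions of R1. H3K27me3 gave no member in CGR8 and 2 in R1, both in the Sox2 window. No annotation on mm9 was used here, so the place of each gene inside its window was not checked, and no other pluripotency gene was placed.

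The cells came from embryonic stem cells of the lines CGR8 (129/Ola) and R1 (strain 129). Both were grown for 8 days in N2B27 medium on coated plates with the cytokine LIF and a pair of inhibitors. These were IWP2 at 2 µM, which stops cells from releasing WNT ligands, and PD325901 at 1 µM, which inhibits the kinase MEK. Chromatin immunoprecipitation and sequencing gave 1 H3K4me3 and 1 H3K27me3 library of each line, 4 in all. With 1 library per line and mark, no test of a difference between CGR8 and R1 was possible, and values of the lines stand side by side as descriptions of these libraries.

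H3K4me3 marks the promoters of active and poised genes, and unusually wide stretches of it are known at genes that define a cell's identity. H3K27me3, laid down by Polycomb repressive complex 2, marks silent developmental genes, and where both marks lie together a promoter is called bivalent. Pou5f1 encodes OCT4, a POU-domain transcription factor that pairs with the HMG-box factor SOX2 on DNA. SALL4 is a zinc finger transcription factor needed in early embryonic cells, and UTF1 is a chromatin-bound factor of undifferentiated cells. LIN28A is an RNA-binding protein that blocks maturation of the let-7 microRNAs.

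The lists held 25241 (CGR8) and 24618 (R1) H3K4me3 regions with a median width of 2000 bp in each, and 14575 and 12511 H3K27me3 regions with a median width of 7600 bp and 6400 bp. Each region carries a score that the authors deposited. It grows with the reads in a region and with its width, and has no unit. The score was used to rank regions within a list. Scores of CGR8 and R1 were also set side by side, per kb and as ratios, without scaling for read depth. Read totals are unknown. Working back from the scores of the shortest regions gave a mean of 0.740 H3K4me3 reads per 200 bp in CGR8 and 0.706 in R1. Where no region was called, the level of the mark is unknown and need not be 0. For each gene, the member with the highest H3K4me3 score is called its main region and any other H3K4me3 member a side region. Since main regions were taken for their score, which grows with width, their positions by score and by width are descriptions.

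Each of the 5 genes had a main H3K4me3 region in both lines, and all 10 of these regions stood in the upper part of their lists. By score they lay within the top 6.59% in CGR8 and the top 6.51% in R1, and by width within the top 6.61% and the top 3.32%. The median position by score was the top 2.37% in CGR8 and the top 0.751% in R1. The median position by width was the top 0.515% in CGR8 and the top 0.37% in R1. Sox2, Sall4 and Pou5f1 formed the upper group, and Utf1 and Lin28a stood lower, in each line.

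**Figure D1:**
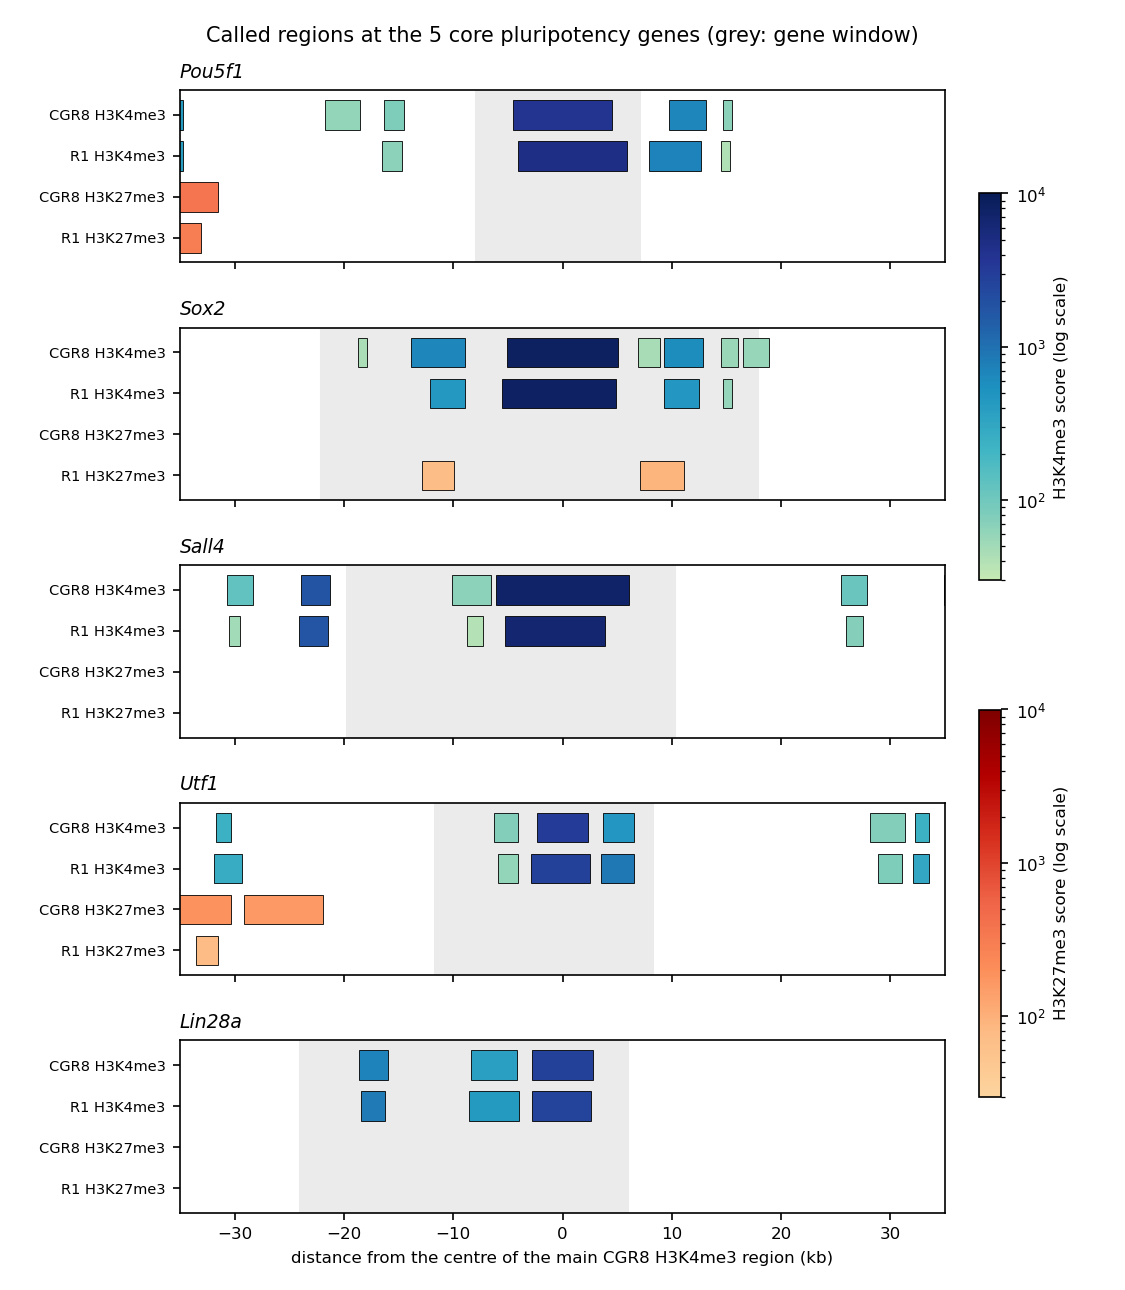
Map of called regions around the 5 genes, in kb from the centre of the main CGR8 H3K4me3 region, with 1 row per line and mark and the gene window in grey. Colour gives the score on a log scale. A main H3K4me3 region lies in every window in both lines, while H3K27me3 enters a window in R1 alone, with 2 regions beside the main region of Sox2.

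Sox2 carried the highest-scoring region of the 5. It ran from 34547001 to 34557200 on chromosome 3 in CGR8 (10.2 kb, score 8469) and from 34546601 to 34557000 in R1 (10.4 kb, score 8325). It ranked 16 of 25241 by score in CGR8 and 10 of 24618 in R1. By width it ranked 70 in CGR8 and 53 in R1, and 11 (CGR8) and 5 (R1) regions of the list, itself included, were at least as high in both score and width. Spread evenly over the region, its score would correspond to 50.4 reads per 200 bp in CGR8 and 48.5 in R1, which is 68.1 and 68.7 times the mean of the library. These read numbers describe the score, since the lists hold no reads. Sox2 lies inside the transcript Sox2ot in the RefSeq annotation of the later build GRCm38.p6, so a mark there cannot be given to Sox2 alone.

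Sall4 had the widest main region in CGR8. It ran from 168583601 to 168595800 on chromosome 2 in CGR8 (12.2 kb, score 7566) and from 168584401 to 168593600 in R1 (9.2 kb, score 6775). The score ranked 33 in CGR8 and 36 in R1, and the width 38 and 91. Gm14261 overlaps Sall4 in the same RefSeq annotation. The mean width was 10.7 ± 2.12 kb for Sall4 and 10.3 ± 0.141 kb for Sox2 (SD, n = 2 lines). The difference was smaller than the SD of Sall4 but larger than that of Sox2. With 2 lines an SD restates the gap between them, and no difference between genes was tested.

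Pou5f1 had a wide main region with a score lower than those of Sox2 and Sall4. It ran from 35638401 to 35647400 on chromosome 17 in CGR8 (9.0 kb, score 3951) and from 35638801 to 35648800 in R1 (10.0 kb, score 4802). The mean width was 9.5 ± 0.707 kb (SD, n = 2 lines). The score ranked 597 of 25241 in CGR8 and 185 of 24618 in R1, and the width 130 and 62. Its position by score, the top 2.37% in CGR8 and the top 0.751% in R1, differed more between the lines, as a ratio, than that of any other main region. Its mean width differed from that of Sox2 by slightly more than its own SD and by more than the SD of Sox2. From that of Sall4 it differed by more than its own SD but by less than the SD of Sall4.

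Utf1 and Lin28a had narrower main regions. For Utf1 it ran from 147129401 to 147134000 on chromosome 7 in CGR8 (4.6 kb, score 3167, rank 1239) and from 147128801 to 147134200 in R1 (5.4 kb, score 2794, rank 1436). For Lin28a it ran from 133571201 to 133576800 on chromosome 4 in CGR8 (5.6 kb, score 2800, rank 1664) and from 133571201 to 133576600 in R1 (5.4 kb, score 2691, rank 1603). The mean width was 5.0 ± 0.566 kb for Utf1 and 5.5 ± 0.141 kb for Lin28a (SD, n = 2 lines). These differ by less than the SD of Utf1 but by more than that of Lin28a. By score Utf1 stood above Lin28a in each line, but in R1 the scores were 2794 and 2691 and the widths equal.

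Per length the order of the genes was different, as the plot of main regions by line shows. Sox2 had 830 score units per kb in CGR8 and 801 in R1, the highest of the 5 in each line. Pou5f1 had 439 in CGR8 and 480 in R1, the lowest of the 5 in each line. Sall4 had 620 in CGR8 and 736 in R1, and Utf1 had 689 in CGR8 and 518 in R1, so their order differed between the lines. Lin28a had 500.0 in CGR8 and 498 in R1. Among all regions these values put Sox2 in the top 5.99% of CGR8 and the top 5.98% of R1. Pou5f1 stood in the top 28.1% of CGR8 and the top 26.2% of R1, lower in the list than by score or by width.

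Promoter sequences of the genes are shown because H3K4me3 is known to favour CpG-rich promoters, so that the density of CpG can be read beside the density of the mark. The sequences are from RefSeq on GRCm38.p6, a build other than the mm9 of the lists. Positions were not converted, so whether these promoters lie inside the main regions was not checked. Each spans 250 bases before to 50 after an annotated gene start, read 5′ to 3′ on the strand of the gene, with CpG in capitals. The table used here matched 4 of the 5 genes, all but Sall4. For Pou5f1 it holds a further start, whose sequence is not shown and whose values are given with the others.
Pou5f1 (chr17:35505782-35506081, plus strand): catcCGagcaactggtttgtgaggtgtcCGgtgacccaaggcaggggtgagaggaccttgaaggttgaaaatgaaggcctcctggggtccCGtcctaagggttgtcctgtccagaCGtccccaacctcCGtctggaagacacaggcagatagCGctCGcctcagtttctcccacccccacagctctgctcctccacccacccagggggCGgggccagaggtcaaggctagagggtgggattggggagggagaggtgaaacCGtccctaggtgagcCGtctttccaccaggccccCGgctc
Sox2 (chr3:34649745-34650044, plus strand): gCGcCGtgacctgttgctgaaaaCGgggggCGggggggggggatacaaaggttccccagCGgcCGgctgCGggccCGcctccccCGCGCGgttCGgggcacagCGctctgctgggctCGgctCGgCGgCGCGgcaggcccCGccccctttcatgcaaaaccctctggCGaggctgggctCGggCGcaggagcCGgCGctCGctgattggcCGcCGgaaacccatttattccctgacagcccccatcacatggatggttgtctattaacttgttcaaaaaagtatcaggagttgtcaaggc
Utf1 (chr7:139943606-139943905, plus strand): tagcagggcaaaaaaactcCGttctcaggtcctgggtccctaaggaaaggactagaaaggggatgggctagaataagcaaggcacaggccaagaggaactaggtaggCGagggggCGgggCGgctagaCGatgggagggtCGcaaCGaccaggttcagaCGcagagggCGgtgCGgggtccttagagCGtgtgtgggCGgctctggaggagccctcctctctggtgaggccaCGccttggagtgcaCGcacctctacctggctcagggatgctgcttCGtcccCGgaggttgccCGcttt
Lin28a (chr4:134018767-134019066, minus strand): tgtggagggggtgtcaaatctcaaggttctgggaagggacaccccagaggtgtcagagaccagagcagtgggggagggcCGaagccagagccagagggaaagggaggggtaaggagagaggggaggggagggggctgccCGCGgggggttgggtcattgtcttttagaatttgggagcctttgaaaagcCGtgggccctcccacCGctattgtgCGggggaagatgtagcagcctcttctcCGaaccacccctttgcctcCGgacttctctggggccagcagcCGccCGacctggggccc
Sox2 has 27 CpG in these 300 bases, Utf1 17, Pou5f1 11 and Lin28a 10, against a median of 7 over 32851 promoters of that length. Of all these promoters, 84.5% have fewer CpG than Sox2, 68.6% fewer than Utf1, 58.6% fewer than Pou5f1 and 56.5% fewer than Lin28a. The further Pou5f1 start has 6 CpG, below that median, and 43.6% of the promoters have fewer. By the 4 sequences shown, Sox2 and Utf1 have the most CpG, and in each line they had a higher H3K4me3 score per kb than Lin28a and Pou5f1. In CGR8 it was 830 and 689, against 500.0 and 439. In R1 it was 801 and 518, against 498 and 480. Sall4, which has no sequence here, had 620 in CGR8 and 736 in R1, above Utf1 in R1. Pou5f1 has 11 CpG and Lin28a 10, but Pou5f1 had the lower score per kb in each line. In R1 Utf1 and Lin28a were close, at 518 and 498, while Utf1 itself had 689 in CGR8. With 4 genes this is a description and no relation was tested. The GC box GGGCGG, searched on both strands with overlapping matches counted, occurs 4 times in the Utf1 promoter, 2 times in Sox2 and 1 time each in Lin28a and the Pou5f1 promoter shown, and 0 times at the further Pou5f1 start, and 35.7% of all these promoters hold it at least 1 time.

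**Figure D2:**
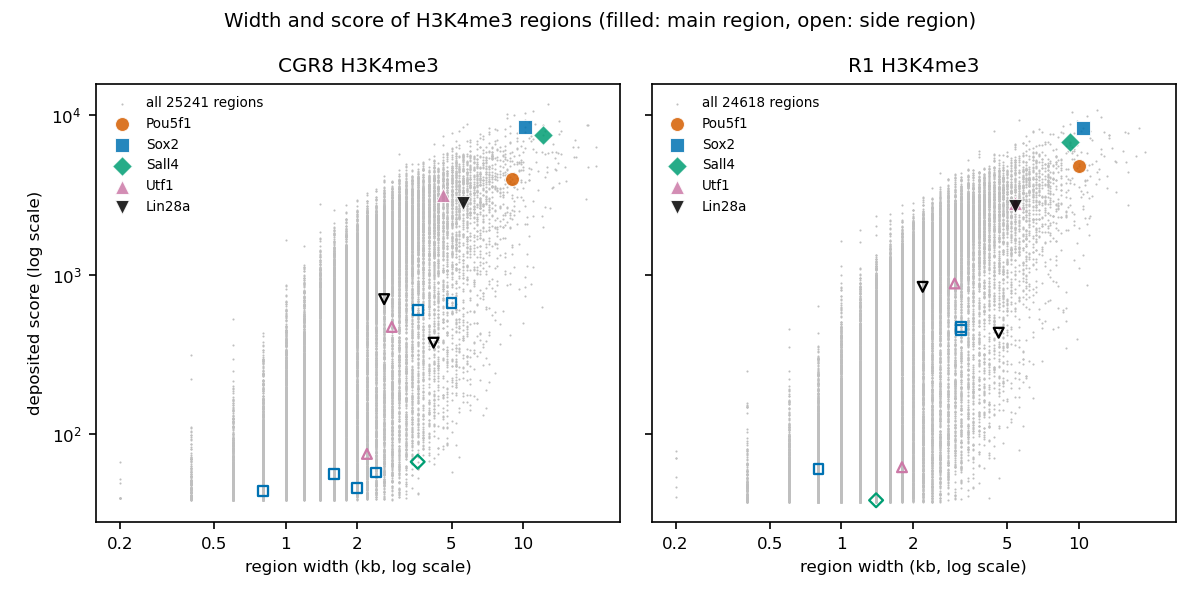
Width in kb and deposited score of every H3K4me3 region (grey points, both axes log) in CGR8 and R1, with main regions of the 5 genes filled and side regions open. Sox2, Sall4 and Pou5f1 lie toward the upper right of both clouds, Utf1 and Lin28a coincide in R1 at 5.4 kb, and the side regions spread down to the lowest scores.

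Side regions accompanied the main region at 4 of the 5 genes, and the Pou5f1 window held none. That window was the narrowest, at 15 kb, and an H3K4me3 region lay 2.6 kb past it in CGR8 and 0.8 kb past it in R1. The absence of a side region at Pou5f1 therefore depends on the window. CGR8 had 11 side regions, from 0.8 to 5.0 kb wide, with scores between 43.8 and 701. R1 had 8, from 0.8 to 4.6 kb wide, with scores between 38.3 and 879. Of these, 6 of 11 in CGR8 and 3 of 8 in R1 stood in the lower 50% of their list by score. None reached the score of any main region in its line.

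The Sox2 window, the widest of the 5 at 40 kb, held 6 side regions in CGR8 and 3 in R1. At lower coordinates than the main region, one from 34538201 to 34543200 in CGR8 (5.0 kb, score 664) matched another from 34540001 to 34543200 in R1 (3.2 kb, score 449.5). Beyond the main region, 34561401 to 34565000 in CGR8 (3.6 kb, score 599.7) matched 34561401 to 34564600 in R1 (3.2 kb, score 469.9). These lay 3.8 kb and 4.2 kb from the main region in CGR8, and 3.4 kb and 4.4 kb in R1. A weak region from 34566601 to 34568200 in CGR8 (score 56.0) also had a partner in R1 (score 59.98). The 3 other side regions of CGR8 had none in R1. They began at 34533401, 34559001 and 34568601, with scores of 43.8, 45.8 and 57.1, close to the lowest score of the CGR8 list, 38.5.

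At Lin28a both side regions were found in each line and stood near the middle of the lists. The region from 133565601 to 133569800 in CGR8 (4.2 kb, score 373.5) lay 1.4 kb from the main region, and its R1 partner from 133565401 to 133570000 (4.6 kb, score 431) lay 1.2 kb from it. These were wide but sparse, with 88.9 score units per kb in CGR8 and 93.8 in R1. The region from 133555401 to 133558000 in CGR8 (2.6 kb, score 701) had a partner from 133555601 to 133557800 in R1 (2.2 kb, score 837).

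At Utf1 a weak region lay before the main one, with a score of 74.9 in CGR8 and 61.8 in R1. A stronger region lay after it, from 147135401 to 147138200 in CGR8 (2.8 kb, score 469) and from 147135201 to 147138200 in R1 (3.0 kb, score 879). By score this pair was the least alike of the 13 paired members, and the main region beside it differed the other way, with 3167 in CGR8 and 2794 in R1. Sall4 had 1 weak side region in each line, with a score of 66.8 in CGR8 and 38.3 in R1. In CGR8 it was separated from the main region by 0.4 kb, the shortest gap that the H3K4me3 lists contain, and in R1 by 2.0 kb.

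Most H3K4me3 members were found in both lines, as were most regions of the whole lists. All 13 members of R1 overlapped an H3K4me3 region of CGR8, where 92.6% of all R1 regions did. Of the 16 members of CGR8, 13 overlapped a region of R1, where 89.8% of all CGR8 regions did. The 3 without a partner were the weak Sox2 side regions. H3K4me3 covered 24.6 kb of the Sox2 window in CGR8 and 17.6 kb in R1, and 15.8 kb and 10.6 kb of the Sall4 window. The cover of the Pou5f1, Utf1 and Lin28a windows differed by at most 1.0 kb between the lines. The bases called in both lines were 92.2% of those called in either in the Lin28a window, 86.8% at Utf1, 82.7% at Pou5f1, 68.8% at Sox2 and 67.1% at Sall4.

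The main regions had close scores in both lines. The log2 ratio of CGR8 over R1 was 0.16 for Sall4, 0.18 for Utf1, 0.06 for Lin28a, 0.02 for Sox2 and -0.28 for Pou5f1. All 5 lay within the range that held the middle of 21972 pairs, from -0.61 (the lowest 5%) to 0.76 (the highest 5%), where the median was 0.03. These pairs include regions of all scores and were not matched to the main regions by score. Pou5f1 was the main region that scored lower in CGR8, and 16.4% of all pairs had a lower ratio than it. By contrast the Utf1 side region after the main one had a log2 ratio of -0.91, and 1.79% of all pairs lay below it. The Sall4 side region lay at the other end, with a ratio of 0.80 and 95.6% of all pairs below it.

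The bounds of the main regions moved by no more than 2200 bp. Those of Lin28a differed by 0 bp at the start and 200 bp at the end, and those of Sox2 by 400 bp and 200 bp. For Pou5f1 the CGR8 region began 400 bp before the R1 region and ended 1400 bp before it. For Sall4 the CGR8 region began 800 bp earlier and ended 2200 bp later. The bases shared were 96.4% of those in either line for Lin28a, 94.3% for Sox2, 85.2% for Utf1, 82.7% for Pou5f1 and 75.4% for Sall4, and the median over all pairs was 83.3%.

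**Figure D3:**
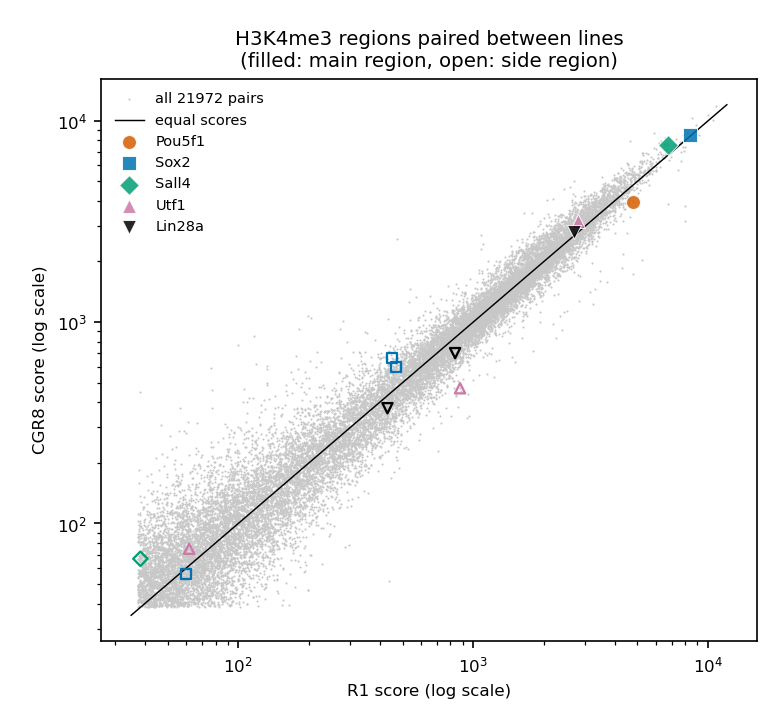
Deposited H3K4me3 scores of regions with a 1-to-1 partner, CGR8 on the vertical and R1 on the horizontal axis (both log), with all 21972 pairs in grey, the line of equal scores, main regions filled and side regions open. The 5 main regions lie close to the line, with Pou5f1 below it, and the Utf1 side region with scores of 469 (CGR8) and 879 (R1) lies farthest below it among the members.

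H3K27me3 was called in none of the 5 windows in CGR8 and in the Sox2 window alone in R1. None of the 16 H3K4me3 members of CGR8 overlapped H3K27me3 of that line, where 28.2% of all its H3K4me3 regions did. Of the 13 members of R1, 2 did, where 29.1% of all its H3K4me3 regions did. No main region overlapped H3K27me3 in either line. Overlap was rarer among high-scoring regions in general. Of the 1664 CGR8 regions that scored at least as high as the main region of Lin28a, 8.05% overlapped H3K27me3, and of the 1603 such R1 regions 9.86% did. With 5 main regions per line, these shares were not tested against the count of 0.

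The H3K27me3 regions of R1 at Sox2 lay on both sides of the main H3K4me3 region without touching it. The first ran from 34539201 to 34542200 (3.0 kb, score 73.8) and ended 4.4 kb before it. The second ran from 34559201 to 34563200 (4.0 kb, score 89.9) and began 2.2 kb after it. Each overlapped an H3K4me3 side region of R1, over 2.2 kb from 34540001 to 34542200 and over 1.8 kb from 34561401 to 34563200. The H3K4me3 side regions of CGR8 at the same places carried no called H3K27me3. In R1, 84 of 24618 H3K4me3 regions (0.341%) had H3K27me3 within 5 kb on each side and none on them. Sox2, which ranked 10 in the whole list, had the highest score among them. In CGR8 the pattern held for 94 of 25241 regions (0.372%), Sox2 not among them. The pattern counted is the one seen at Sox2 in R1, so these shares are descriptions and no test of its rarity.

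Both H3K27me3 calls at Sox2 had low scores and were narrow, at 3.0 and 4.0 kb. By score they ranked 9827 and 8034 of 12511 in R1. Per kb they had 24.6 and 22.5 score units, in the top 39.7% and 44.6% of that list, whose median was 20.6. Neither overlapped an H3K27me3 region of CGR8, where 81.1% of all R1 regions did. Among the 1794 R1 regions with scores between those of these calls, 67.7% overlapped one of CGR8. The lowest score in the CGR8 H3K27me3 list was 70.6 and that in the R1 list 59.4. In CGR8 the nearest H3K27me3 to the Sox2 main region lay 148 kb away, from 34705201 to 34711000. On that side, the next H3K27me3 region of R1 beyond the window lay 1505 kb from it. Whether the calls at Sox2 reflect a difference between the lines was not tested.

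The other main regions lay far from H3K27me3 or at a usual distance. Sall4 was 137.6 kb from the nearest H3K27me3 region in CGR8 and 138 kb in R1, and 84.8% and 83.3% of all H3K4me3 regions were nearer to one. Lin28a was 42.8 kb away in CGR8 and 33.8 kb in R1. The R1 region there scored 62.05, close to the lowest score of its list, 59.4, and had no CGR8 partner. The nearest CGR8 region (score 104) overlapped H3K27me3 of R1. Pou5f1 was 27 kb away in CGR8 and 29 kb in R1, and Utf1 19.6 kb and 28.6 kb. The median over all H3K4me3 regions was 25.2 kb in CGR8 and 25.6 kb in R1.

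**Figure D4:**
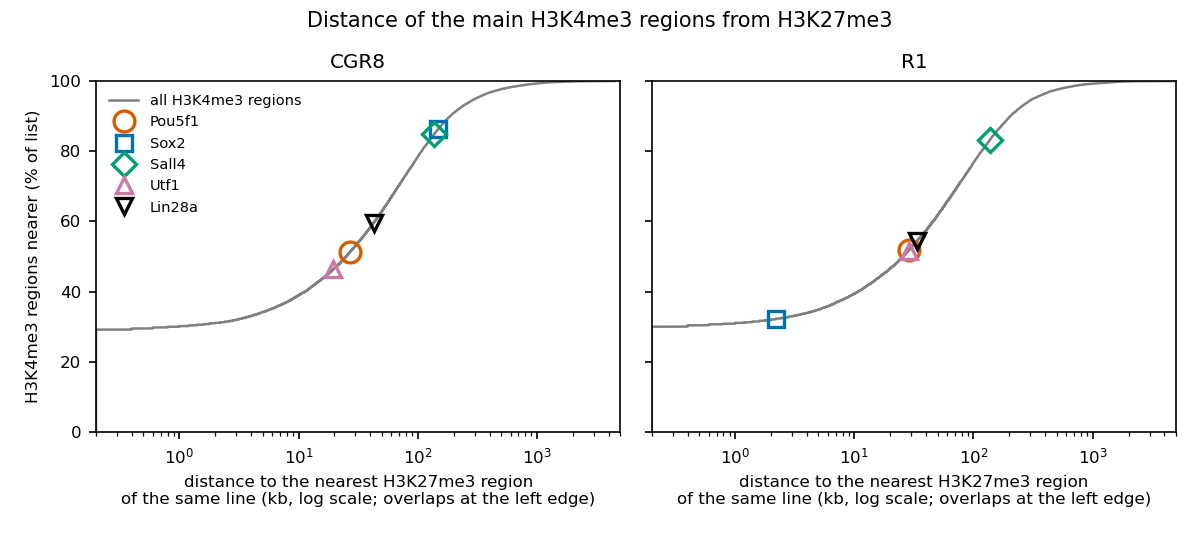
Distance from each main H3K4me3 region to the nearest H3K27me3 region of the same line (horizontal, kb, log axis) and the percentage of all H3K4me3 regions that are nearer (vertical), with the grey curve for all regions. Sall4 lies at about the same place in both panels, while Sox2 is at 148 kb in CGR8 and 2.2 kb in R1.

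The region nearest to Pou5f1 was found in both lines, from 35604401 to 35611400 in CGR8 (7.0 kb, score 371) and from 35604601 to 35609800 in R1 (5.2 kb, score 307). It held 1.4 kb of H3K4me3 in each line. Near Utf1, the closest H3K27me3 region of CGR8 ran from 147102601 to 147109800 (7.2 kb, score 160) and had no R1 partner. That of R1 ran from 147098201 to 147100200 (2.0 kb, score 75.9). It lay wholly within another H3K27me3 region of CGR8, which was farther from Utf1 (score 180). On the other side of Utf1, 88.8 kb beyond the window in CGR8 and 89.2 kb in R1, both lines had a broad H3K27me3 region, 25.4 kb wide with rank 192 in CGR8 and 23.0 kb wide with rank 182 in R1.

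H3K4me3 regions just outside the windows were not counted as members. After Pou5f1, one lay 2.6 kb past the window in CGR8 (3.4 kb wide, score 666) and 0.8 kb past it in R1 (4.8 kb wide, score 712). Tcf19 is the next protein-coding gene on that side of Pou5f1 in the RefSeq order. A region 1.6 kb before the Sall4 window in CGR8 (2.6 kb wide, score 1787) and 1.8 kb before it in R1 (2.6 kb wide, score 1730) scored higher than any side region. Just inside, the Sox2 window cut through the CGR8 region that began at 34568601, and all other members lay wholly within their windows.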

How the data were processed

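ChIP-seq libraries of H3K4me3 and H3K27me3 from rosette stem cells of 2 lines were used, 1 per line and mark. Groups came from the sample titles, with the line as the replicate (1 is CGR8, 2 is R1), and the labels name no further cultures. The authors deposited 1 list per library with a position and a score for each called region. Per the submitters' processing notes, Bowtie2 2.0.2, SICER 1.1, a caller for broad domains, and bedtools 2.20.1 were among the tools, on mm9. For settings, any control library and the formula of the score, the sources used here give nothing. The shortest gap between regions was 400 bp in the H3K4me3 lists and 800 bp in the H3K27me3 lists, so shorter gaps count as covered and widen the regions. The lowest H3K27me3 score was 70.6 in CGR8 and 59.4 in R1, and the lowest H3K4me3 score 38.5 and 37.3.

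Starts were counted from 1. All regions overlapping a gene window by at least 1 bp were described, and outside the windows the nearest region of each mark on either side. Ranks run within a list, from the highest value. Pairs are regions that overlap exactly 1 region of the other line, both ways. The mean reads per window was solved from the scores of H3K4me3 regions up to 400 bp, as sums of negative natural logs of Poisson probabilities. It explained 144 of 144 of them in CGR8 and 155 of 155 in R1 within 1e-06, and the next best value 10 and 9. No test was run across samples. Overlap, distance and pairing were tested on simulated data of 2000 regions. The members and lists were chosen with earlier results of these data known. Python 3.11.15 with numpy 2.4.6, scipy 1.17.1, pandas 2.3.3 and matplotlib 3.10.9 was used. Alternatives concerned overlap, list length, joining, ranking and leaving out a line.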

Additional observations from a re-analysis of the deposited data

How the results depend on the processing

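The windows held 2 H3K27me3 regions, and still 2 when widened by 10 kb. The count of 2 H3K4me3 members overlapping H3K27me3 was also 2 with H3K27me3 less than 1 kb away counted and with 50% of the H3K4me3 region covered. Both counts were 0 in the higher-scoring 50% of the H3K27me3 lists and ranged from 0 to 2 on leaving out a line, being 2 without CGR8 and 0 without R1. Over both lines 89.7% of the H3K4me3 members had a partner, and 86.2% to 100% under the alternatives. Ranked by score per kb in place of score, the median position of the main regions over both lines was the top 17.2%, against the top 1.56% by score. By score, with a line left out, it was between 0.751% and 2.37%. The median position by width was the top 0.383%, between 0.37% and 0.515% with a line left out, and 0.669% with regions less than 1 kb apart joined. Joining made the main region of Sall4 16.2 kb wide in CGR8 and left it at 9.2 kb in R1. The median log2 score ratio of the main regions was 0.06, and as a difference in score percentile (CGR8 minus R1) it was -0.0228 percentage points, so the sign depends on the measure. With the median of all pairs subtracted the log2 score ratio was 0.03. No paired analysis was possible because each line has 1 library per mark and no test was run. Read totals and the depth of the H3K27me3 libraries are unknown, so what depth limits was not measured for that mark.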
